A study of Mus musculus with 31 samples.

Results

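The genes described here mark enteroendocrine cells, the scattered hormone-secreting cells of the gut epithelium, in scrapings of the mouse colon. They are 9 named genes: the peptide hormones Gcg, Pyy, Insl5, Cck and Sst, the serotonin enzyme Tph1, the granule proteins Chga and Chgb, and the transcription factor Neurod1. Each was read from its probe set with a single gene symbol, and each of the 9 had exactly 1 such probe set among the 18820 genes measured. All 9 were among the 12795 genes tested, which reached an intensity of 20 on at least 3 arrays.

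Male C57Bl/6J mice of 13 weeks ate a semi-synthetic, palm oil based diet with 45% of its energy from fat (HFD) or with 10% (LFD). Over 6 consecutive days they received, under mild sedation, a daily rectal infusion of 80 µL of isotonic solution containing 100 mM sodium acetate, sodium propionate or sodium butyrate, or saline as control, and the colon was scraped 4 h after the last one. The 8 groups were acetate, propionate, butyrate and saline on HFD, and the same infusions on LFD, with n = 4 arrays apiece, acetate LFD alone having n = 3. Groups of 6 mice are named in the labels, without a link from mice to the 31 arrays, so p-values measure the spread between these samples. A scraping is a mixture of cells, and in it fewer enteroendocrine cells and less RNA per cell cannot be told apart.

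Enteroendocrine cells arise from crypt progenitors under a cascade of transcription factors in which Neurod1 acts after the first commitment to the lineage, and they release their products on meeting nutrients or bacterial metabolites. L cells, which become frequent towards the rectum, store peptides cut from proglucagon, the product of Gcg (among them GLP-1, which augments insulin secretion), with peptide YY, which slows transit and lowers food intake, and in the colon also insulin-like peptide 5, a ligand of the relaxin family receptor RXFP4. Enterochromaffin cells make serotonin with tryptophan hydroxylase 1, the product of Tph1, and D cells release somatostatin, which restrains other endocrine cells. The acids infused here are short-chain fatty acids, which bacteria make from fibre and which L cells sense through the receptors encoded by Ffar2 and Ffar3. They differ by chain length, acetate being the shortest and butyrate the longest.

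The proximal promoters of the genes whose levels went together across arrays (Tph1 with Chga, and Pyy with Insl5), and that of Chgb, are printed here as the 200 bases before the annotated start, 5′ to 3′ on the strand of the gene, from RefSeq on build GRCm38.p6. All 9 genes matched the promoter table. Tph1, Pyy and Insl5 had 2 starts each, of which the start nearest the 5′ end of the RefSeq gene was used. The start listed for Sst lies inside the span of its RefSeq gene, and so does its window. Capitals mark E-boxes (CANNTG, the motif bound by basic helix-loop-helix factors, the class of Neurod1) and the cyclic AMP response element (TGACGTCA) or its half-site (TGACGT). Both strands were searched, and the half-site lies within the full element. The windows are chr7:46672538-46672737 (minus strand), chr12:102554741-102554940 (plus), chr11:102107833-102108032 (minus), chr4:103027272-103027471 (minus) and chr2:132781442-132781641 (plus).
Tph1: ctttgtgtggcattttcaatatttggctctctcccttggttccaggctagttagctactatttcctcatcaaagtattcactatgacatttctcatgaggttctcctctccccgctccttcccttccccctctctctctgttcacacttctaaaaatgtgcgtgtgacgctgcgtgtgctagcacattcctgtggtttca
Chga: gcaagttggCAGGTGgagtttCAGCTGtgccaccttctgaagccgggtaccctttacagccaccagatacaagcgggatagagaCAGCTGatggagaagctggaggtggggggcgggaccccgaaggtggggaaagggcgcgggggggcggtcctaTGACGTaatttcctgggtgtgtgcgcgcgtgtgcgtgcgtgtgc
Pyy: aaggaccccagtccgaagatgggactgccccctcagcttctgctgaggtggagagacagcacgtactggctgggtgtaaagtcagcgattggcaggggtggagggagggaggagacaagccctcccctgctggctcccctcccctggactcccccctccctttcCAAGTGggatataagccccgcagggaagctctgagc
Insl5: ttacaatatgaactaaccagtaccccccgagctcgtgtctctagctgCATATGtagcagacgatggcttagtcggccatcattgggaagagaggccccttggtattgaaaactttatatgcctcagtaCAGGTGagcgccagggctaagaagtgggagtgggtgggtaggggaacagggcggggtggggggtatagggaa
Chgb: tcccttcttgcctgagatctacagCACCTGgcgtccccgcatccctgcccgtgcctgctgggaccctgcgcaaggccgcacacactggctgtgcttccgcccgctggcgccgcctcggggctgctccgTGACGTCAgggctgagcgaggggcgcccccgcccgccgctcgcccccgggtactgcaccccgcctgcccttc
The Chga window held 3 E-boxes, that of Insl5 held 2, those of Pyy and Chgb 1 each, and that of Tph1 held 0. An E-box was present in 58.2% of all 32851 promoter windows of this length, so its presence separates few genes. The full cyclic AMP element was found in 1.47% of windows and among the 9 genes in those of Chgb, where it began 72 bases before the start, and Sst, 48 bases before it. Chga held a half-site alone, 44 bases before the start, against 5.85% of all windows with one. Gcg (3 E-boxes), Cck (2), Sst (1) and Neurod1 (0) are given by count only. These matches describe letters and not occupied sites.

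The scrapings expressed epithelial keratins, cadherin and villin evenly (6 of 6 markers tested, list mean 11.6 to 11.8 on the log2 scale over the 31 arrays). Within groups, pairs of arrays had an r of 0.987 to 0.994 across all probe sets. Enterocyte markers of the small intestine (14 of 14 tested, lipid absorption genes for the most part) had list means of 8.01 to 8.43 on saline HFD 2, propionate LFD 2 and saline LFD 2 and 3, and of at most 6.59 on the other arrays. Smooth muscle markers (8 of 10 tested) were highest on saline HFD 1 and 2, at 7.10 and 6.80, and reached at most 6.17 elsewhere. Results that involve these arrays are also given without them where the value differs by more than 1.5 times. Enteric neurons, which also make Sst and Chgb, were faintly represented (3 of 11 markers tested, list mean 4.59 to 4.90). Over the 31 arrays their list mean had an r of at most 0.24 with any member. By diet the values lay further apart. For Neurod1 r was 0.71 over the HFD arrays and -0.53 over the LFD arrays, and for Tph1 0.45 and -0.49. These differences between the diets were not tested.

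Of the peptide hormones of L cells, Gcg was measured at log2 levels of 8.35 to 9.17 over the 31 arrays, with means of 8.79 ± 0.233 on HFD (SD, n = 16) and 8.66 ± 0.185 on LFD (SD, n = 15) that differed by less than either spread. Its group means ran from 8.94 (acetate HFD) down to 8.57 (saline LFD). Pyy lay between 9.40 and 10.12, with group means from 9.96 (butyrate HFD) down to 9.70 (propionate LFD). Both exceeded the intensity of 20 on all 31 arrays.

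Insl5 varied most. Its levels ran from 7.31 on butyrate LFD 2 to 9.66 on butyrate LFD 1, a 5.10-fold span between arrays of one group. The pooled spread within groups was 0.494 (SD), against 0.142 to 0.246 for the other 8 genes. Group means ran from 9.47 ± 0.184 in butyrate HFD (SD, n = 4) down to 8.84 ± 1.05 in butyrate LFD (SD, n = 4), and in butyrate LFD the arrays other than the second lay at 9.66, 9.14 and 9.27.

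Cck, whose peptide contracts the gallbladder and is made mainly in the upper gut, was close to the limit of measurement. It lay at log2 4.01 to 4.66 and reached the intensity of 20 on 17 of 31 arrays, so its differences carry little. Sst was measured between 6.49 and 7.03, and its lowest group mean, 6.61 in butyrate LFD, came from arrays at 6.66, 6.61, 6.60 and 6.56. That group was the tightest for Sst, with an SD of 0.0408.

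Tph1, which limits the rate of serotonin synthesis outside the brain, ranged from 8.06 (propionate HFD 3) to 9.06 (propionate HFD 4), so both ends of its 2.00-fold range fell in the same group. Chga, the granule protein used as a general marker of endocrine cells, ranged from 10.09 (saline LFD 1) to 11.18 (propionate HFD 4). Chgb, a related granin, ranged from 9.30 (saline LFD 3) to 10.00 (propionate HFD 2), and Neurod1 from 5.16 (propionate HFD 3) to 6.10 (acetate HFD 4). For each of the 9 genes, every step between neighbours in the order of the 8 group means was smaller than its pooled within-group SD. Steps in a sorted order tend to be small, so this does not show that the groups were alike. The highest and lowest group means lay further apart than that SD (for Gcg 0.370 against 0.210), except for Tph1 (0.224 against 0.243).

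**Figure D1:**
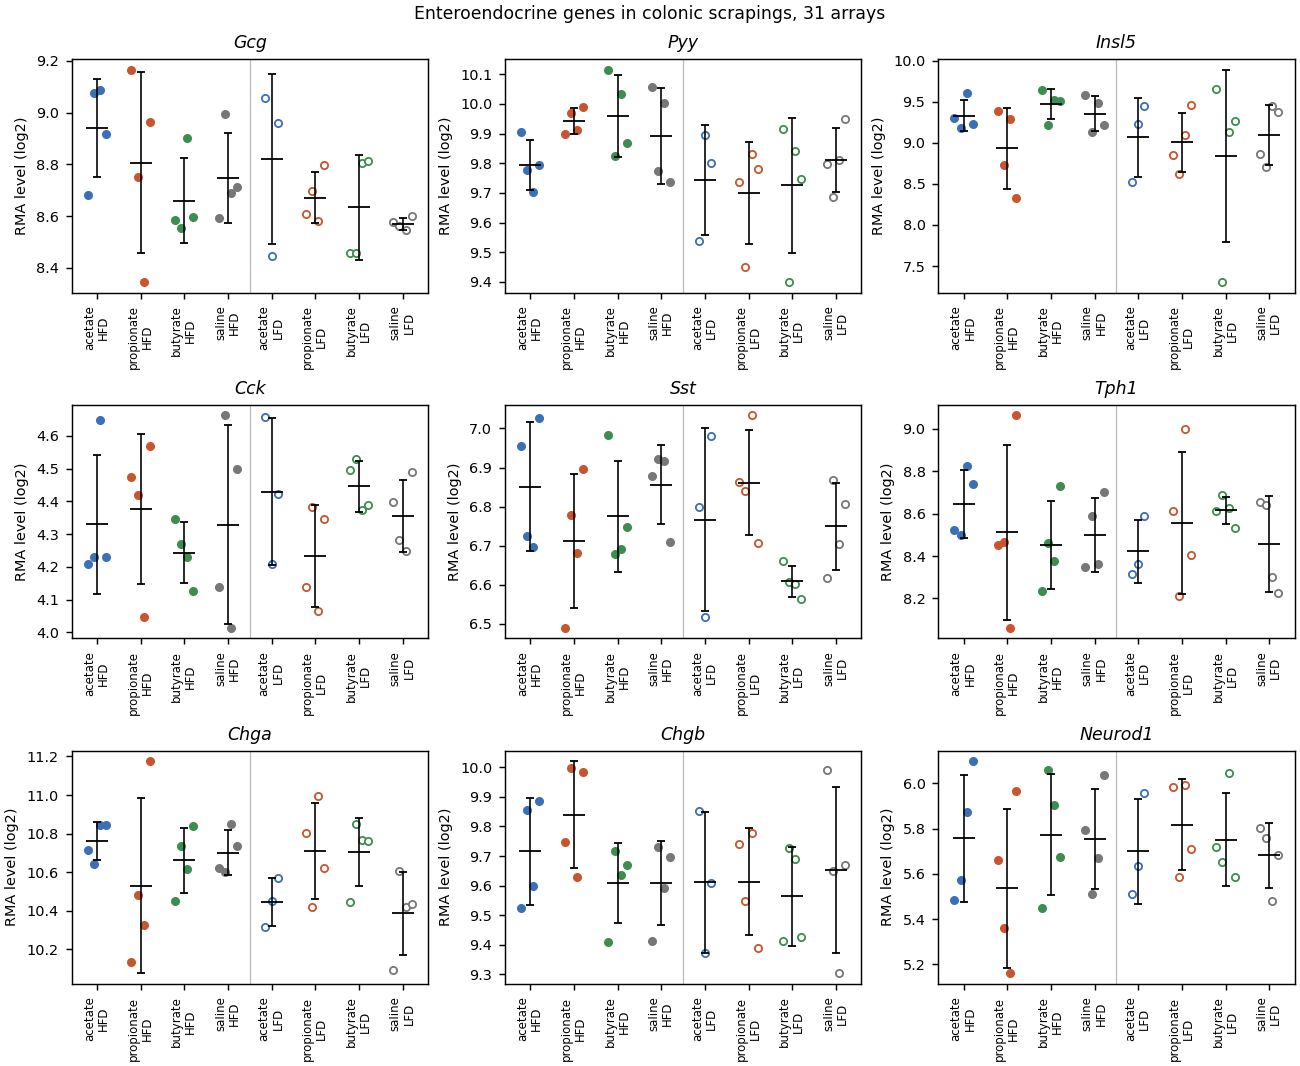
Log2 RMA level (y axis) of each of the 9 genes in every array, by infusion and diet (x axis), with filled points for HFD, open points for LFD, horizontal bars for group means and error bars for the SD (n = 4, acetate LFD n = 3). Each panel has its own scale. The arrays of most groups overlap, and butyrate LFD 2 stands at 7.31 for Insl5.

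The first comparison asked whether the high-fat diet shifted these genes. Taken over all infusions, Pyy was the nearest to a change. Its HFD arrays lay at 9.70, 9.90 and 10.12 (lowest, median and highest of 16), against 9.40, 9.80 and 9.95 in the 15 LFD arrays. The ranges overlapped, yet 14 of 16 HFD arrays were above the LFD mean. The difference was 0.15 ± 0.05 (HFD minus LFD, log2 ± the standard error of the fit), 11.1% with an interval of 3.25% to 19.6%, and its adjusted p of 0.0875 by limma with Benjamini-Hochberg adjustment over all genes tested missed the threshold of 0.05.

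None of the 9 genes passed that threshold over all infusions (0 of 9), where 2.7% of all genes tested did. At an unadjusted p under 0.05 the count was 1 of 9 (Pyy), against 21.7% of all genes. The others ran from -0.05 (Cck) to 0.27 ± 0.16 (Insl5), 7 of the 9 differences were above 0, and their median was 0.08, against 0.01 over all genes tested. Excepting Insl5, the 95% intervals of all members lay between -0.20 and 0.26, and that of Insl5 ran from -0.07 to 0.60. Without butyrate LFD 2 the Insl5 difference was 0.14. Markers of small intestinal enterocytes were lower on HFD, with 13 of 14 differences below 0 (median -0.41) and 2 past the threshold. Of the 4 arrays highest in these markers, propionate LFD 2, saline LFD 2 and saline LFD 3 are on LFD and saline HFD 2 on HFD. The count and the median were not recomputed without them. Of the 2 genes, Fabp6, the ileal bile acid binding protein, was lower by 0.90 and Slc5a1, a glucose transporter, by 0.16 on the log2 scale. Fabp6 missed the threshold without butyrate HFD 3, saline HFD 3 or acetate LFD 3 (-0.85 to -0.81), and Slc5a1 missed it without any 1 of 22 arrays (-0.17 to -0.14). When the 4 arrays highest in small intestinal markers were left out, Fabp6 passed by limma (-0.87, adjusted p = 0.0192) and Slc5a1 did not (-0.13, adjusted p = 0.116). Under propionate alone Slc5a1 passed as well, at -0.39, and missed the threshold there in 3 of 44 other settings. The part of these markers in the values of the members was not tested, and Pyy was at 0.13 without the 4 arrays highest in them.

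Under single infusions, the Pyy levels of the diets stood apart without overlap after propionate. They were 9.90, 9.97, 9.91 and 9.99 in propionate HFD, against 9.74, 9.45, 9.83 and 9.78 in propionate LFD. The difference was 0.24 ± 0.10 (adjusted p = 0.134), and it stood at 0.16 without propionate LFD 2, the lowest of the 8 arrays and one of the 4 high in small intestinal markers. After butyrate, Pyy lay at 10.12, 9.82, 10.03 and 9.87 in butyrate HFD, against 9.91, 9.40, 9.84 and 9.75 in butyrate LFD. These ranges overlapped, with a difference of 0.23 ± 0.10 (adjusted p = 1.00) that stood at 0.13 without butyrate LFD 2. The diet differences of Pyy under acetate and saline were 0.05 and 0.08, and whether the diet effect varied with the infusion is tested further on. Under butyrate the diets also stood apart without overlap for Sst (6.68 to 6.98 on HFD, 6.56 to 6.66 on LFD). The same held for Cck (4.13 to 4.35 on HFD, 4.37 to 4.53 on LFD). Neither of these differences of Sst and Cck had an unadjusted p under 0.05 by limma. The share of all genes whose groups stood apart in this way was not counted, here or below.

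Chga differed by diet to a like extent under acetate and saline. Under acetate its levels were 10.72, 10.64, 10.84 and 10.85 on HFD, against 10.32, 10.45 and 10.57 on LFD. These groups did not overlap, at a difference of 0.32 ± 0.16 (adjusted p = 0.671). Under saline the levels were 10.62, 10.60, 10.85 and 10.74 in saline HFD, against 10.09, 10.61, 10.42 and 10.43 in saline LFD. Of these, 1 LFD array (saline LFD 2) reached into the HFD range. The difference was 0.31 ± 0.15 (adjusted p = 0.684), 0.22 without saline LFD 1 and 0.47 when the 4 arrays high in small intestinal markers were left out, of which 3 belong to these groups.

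By limma 0 of the 9 genes passed the adjusted threshold in the diet comparison under acetate, propionate, butyrate or saline. The shares of all genes tested that passed were 6.87% under propionate and 0% under each of the others. At an unadjusted p under 0.05 the count under propionate was 1 of 9, beside 24.4% of all genes, and under butyrate also 1 of 9 (Pyy in both), beside 3.67%. Under saline it was 1 of 9 (Chga), beside 7.28%, and under acetate 0 of 9, beside 7.71%. The largest diet difference of any member was that of Insl5 under butyrate, 0.63, with an interval half-width of 0.66, and it was 0.12 without butyrate LFD 2, its lowest array.

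**Figure D2:**
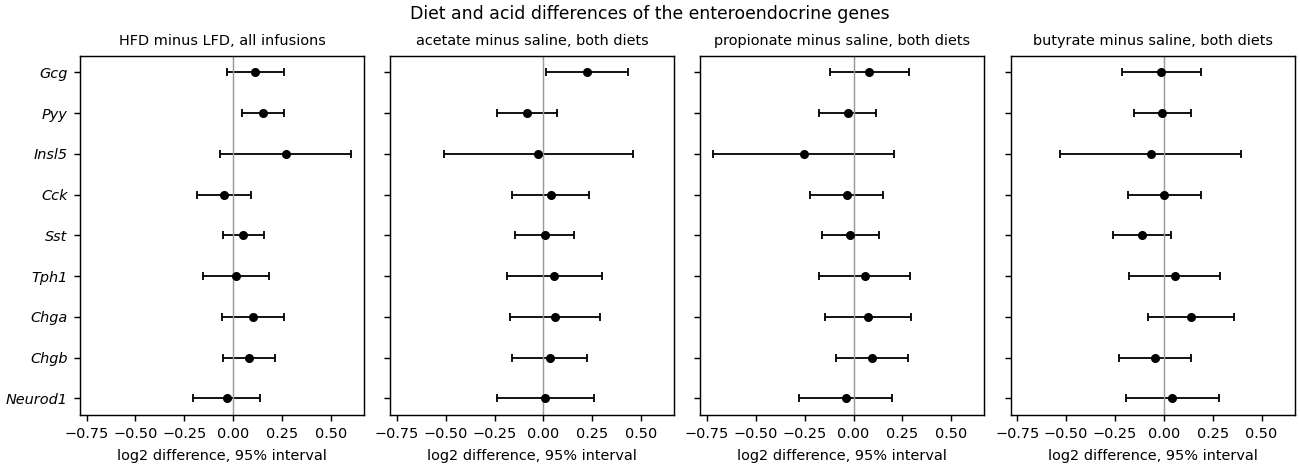
Log2 differences of the 9 genes (rows) with 95% intervals of the fit (error bars), for HFD minus LFD over all infusions and for each acid minus saline over both diets (x axis). The interval of Pyy for diet (0.05 to 0.26) and that of Gcg for acetate (0.01 to 0.43) lie above 0, and 0 of the 9 genes passed the adjusted threshold in any panel.

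The second question was whether an acid altered these genes relative to saline. For Gcg, the group mean on each diet was highest after acetate. Levels were 8.68, 9.08, 9.09 and 8.92 in acetate HFD, against 8.59, 8.996, 8.69 and 8.71 in saline HFD. On LFD they were 9.06, 8.44 and 8.96 after acetate, against 8.58, 8.56, 8.55 and 8.60 after saline. On LFD the saline arrays lay close together (SD 0.0236), while the acetate arrays lay on both sides of them. Over both diets the difference was 0.22 ± 0.10 (acetate minus saline, interval 0.01 to 0.43, adjusted p = 1.00), with 6 of 7 acetate arrays above the mean of all saline arrays. Against the saline mean of its own diet, acetate HFD 1 (8.68) lay below 8.75 and acetate LFD 2 (8.44) below 8.57.

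Chga on LFD lay above saline after both longer acids. The levels were 10.81, 10.42, 11.00 and 10.62 after propionate and 10.45, 10.85, 10.77 and 10.76 after butyrate, against 10.09, 10.61, 10.42 and 10.43 after saline. In both comparisons the ranges overlapped, and all acid arrays were above the saline mean of 10.39. The difference was 0.32 ± 0.15 for propionate (adjusted p = 0.972) and 0.32 ± 0.15 for butyrate (adjusted p = 1.00). Both use the same saline LFD arrays, the lowest group for Chga, as does the diet difference under saline above. Of the 4 arrays high in small intestinal markers, 3 lie in propionate LFD and saline LFD. Without these 4 the propionate difference was 0.55 and the butyrate difference 0.44, still short of the threshold by limma (adjusted p = 0.618 and 0.734). That setting left saline LFD 1 and saline LFD 4 as the only saline arrays on LFD. Other settings lowered the values, to 0.22 for propionate without saline LFD 1 and to 0.21 for butyrate with array weights.

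Over both diets, 0 of 9 genes passed the adjusted threshold for acetate, propionate or butyrate against saline, as did 0% of all genes tested. At an unadjusted p under 0.05 the counts were 1 of 9 for acetate (Gcg), beside 3.21% of all genes, 0 of 9 for propionate, beside 2.67%, and 0 of 9 for butyrate, beside 4.45%. No acid thus had more than a single member at that level over both diets. On HFD alone, 0 of 9 passed either threshold after acetate, propionate or butyrate, and 2.51%, 11.7% and 4.01% of all genes had an unadjusted p under 0.05. On LFD alone, where again 0 of 9 and 0% of all genes passed the adjusted threshold, the counts at the unadjusted one were 0 of 9 for acetate, beside 1.51%, and 1 of 9 (Chga) for both propionate and butyrate, beside 3.81% and 2.8%. The largest value of a member on HFD was that of Insl5 after propionate, -0.42 (-0.22 without propionate HFD 4), from arrays at 9.38, 8.73, 9.28 and 8.33, against 9.58, 9.13, 9.49 and 9.22 after saline. With Insl5 left aside, the intervals over both diets lay between -0.28 and 0.43.

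Whether the response to an acid differed by diet was tested as an interaction (acid minus saline on HFD, minus the same on LFD). For Chga the propionate response was -0.17 on HFD, where propionate arrays were at 10.13, 10.48, 10.33 and 11.18, and 0.32 on LFD. The difference between them was -0.50 ± 0.21 (adjusted p = 0.321). It was -0.75 without the 4 arrays high in small intestinal markers and -0.36 without propionate HFD 1. For Pyy the same interaction was 0.16 for propionate and 0.15 for butyrate, so the separate diet values under these infusions do not show that the effect of diet on Pyy varied with the infusion. By limma 0 of 9 genes and 0% of all genes passed the adjusted threshold for any acid. The counts at an unadjusted p under 0.05 were 0 of 9 for acetate, 1 of 9 for propionate and 0 of 9 for butyrate, against 0.844%, 12.8% and 2.27% of all genes.

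The acids were infused at the same concentration and time, so they could be set against each other, in 3 pairs on each diet. Sst on LFD differed most clearly between neighbours in chain length. It was measured at 6.66, 6.61, 6.60 and 6.56 after butyrate, against 6.86, 6.84, 7.03 and 6.71 after propionate. The groups did not overlap, and the share of all genes for which that held was not counted. The difference was -0.25 ± 0.10 (butyrate minus propionate), though the adjusted p was 0.999. On HFD the same pair differed by 0.06.

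No other pair of acids had a member at an unadjusted p under 0.05, and 0 of 9 passed the adjusted threshold in any of the 6 comparisons. On HFD the background at the unadjusted threshold was 13.2% of all genes for propionate against acetate, 3.64% for butyrate against acetate and 17.3% for butyrate against propionate, and in the last pair 0.0625% of all genes passed the adjusted threshold, against 0% in the other 5 comparisons. On LFD the background was 3.7%, 1.4% and 3.62% in the same order of pairs, with 0 of 9, 0 of 9 and 1 of 9 members (Sst). With Insl5 left aside, the intervals between acids ran from -0.57 to 0.60. Differences inside those limits remain possible with this number of arrays, and the missed threshold does not show that the acids acted alike.

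Across the 31 arrays some members went together. This was asked of all 36 pairs, with Pearson's r on levels, Spearman's rho, and r on deviations from the group means, each by permutation with adjustment over the 36 pairs. On levels 6 pairs passed an adjusted permutation p of 0.05 by r. On deviations 6 passed as well, with Tph1 and Chgb in place of Chga and Neurod1.

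Tph1 and Chga, both products of enterochromaffin cells, had an r of 0.66 (permutation p = 7e-05, adjusted p = 0.003) and a rho of 0.64 (permutation p = 0.00011, adjusted p = 0.004). On deviations from the group means r was 0.67 (adjusted permutation p = 0.042), with r of 0.74 over the 16 HFD arrays and 0.58 over the 15 LFD arrays. Leaving out the 2 arrays farthest from the median of Tph1 gave 0.51. The relation was present on either diet and is visible in the plot of Chga against Tph1. Tph1 and Chgb had an r of 0.45 (permutation p = 0.0116, adjusted p = 0.0595) and a rho of 0.46 (permutation p = 0.0113, adjusted p = 0.0677), which missed the threshold. On deviations r was 0.52 (adjusted permutation p = 0.0421) and rho 0.57 (adjusted permutation p = 0.034), past it, and r on levels was 0.33 without the 2 farthest arrays.

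Neurod1, the transcription factor, went with both. Its r with Tph1 was 0.62 (permutation p = 0.00016, adjusted p = 0.003) with a rho of 0.60 (permutation p = 0.00053, adjusted p = 0.006), and 0.67 on deviations (adjusted permutation p = 0.006). Without the 2 farthest arrays it was 0.58. The relation with Tph1 thus passed within the groups too. Its r with Chga was 0.51 (permutation p = 0.00365, adjusted p = 0.027) with a rho of 0.50 (permutation p = 0.00446, adjusted p = 0.032) and 0.57 without the 2 farthest arrays, and it missed the threshold on deviations, at 0.50 (adjusted permutation p = 0.105). Neurod1 also went with mucosal mast cell markers (4 of 8 tested), at an r of 0.54 (permutation p = 0.00158, adjusted p = 0.028 over 72 relations of members with cell type lists). Its rho of 0.47 (permutation p = 0.00789, adjusted p = 0.0812) missed the threshold, as did r on deviations (adjusted permutation p = 0.176), and r was 0.42 without the 2 farthest arrays. With the same mast cell markers Tph1 had an r of 0.48 and Chga of 0.38, short of the threshold (adjusted permutation p = 0.0802 and 0.183). The part of mast cells in the levels of these genes was not tested.

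Pyy and Insl5, both hormones of colonic L cells, had an r of 0.63 (permutation p = 0.00033, adjusted p = 0.004) and a rho of 0.51 (permutation p = 0.00351, adjusted p = 0.032). On deviations r was 0.68 (adjusted permutation p = 0.018). On levels r was 0.06 over the 16 HFD arrays and 0.85 over the 15 LFD arrays, butyrate LFD 2 among them, a difference that was not tested. Over the arrays of both diets, r on levels was 0.46 without butyrate LFD 2 and 0.37 without the 2 arrays farthest from the median of Pyy. The relation was weaker without these arrays, and near 0 over the HFD arrays taken alone.

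Gcg, the remaining L cell hormone, had an r of -0.09 with Pyy and 0.07 with Insl5. The one relation of Gcg that passed was with Cck, at 0.48 (permutation p = 0.00642, adjusted p = 0.038) and a rho of 0.41 (permutation p = 0.0214, adjusted p = 0.11). On deviations r was 0.59 (adjusted permutation p = 0.0421) and rho 0.55 (adjusted permutation p = 0.0387). Without the 2 farthest arrays r on levels was 0.40. Cck was near the limit of measurement, as given above.

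Insl5 and Chgb ran opposite to each other. Their r was -0.49 (permutation p = 0.00374, adjusted p = 0.027) and their rho -0.64 (permutation p = 0.00026, adjusted p = 0.005). On deviations r was -0.59 (adjusted permutation p = 0.006), with -0.82 over the HFD arrays and -0.49 over the LFD arrays. Without the 2 arrays farthest from the median of Insl5 it was -0.57. The relation did not rest on butyrate LFD 2, without which it was -0.63.

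**Figure D3:**
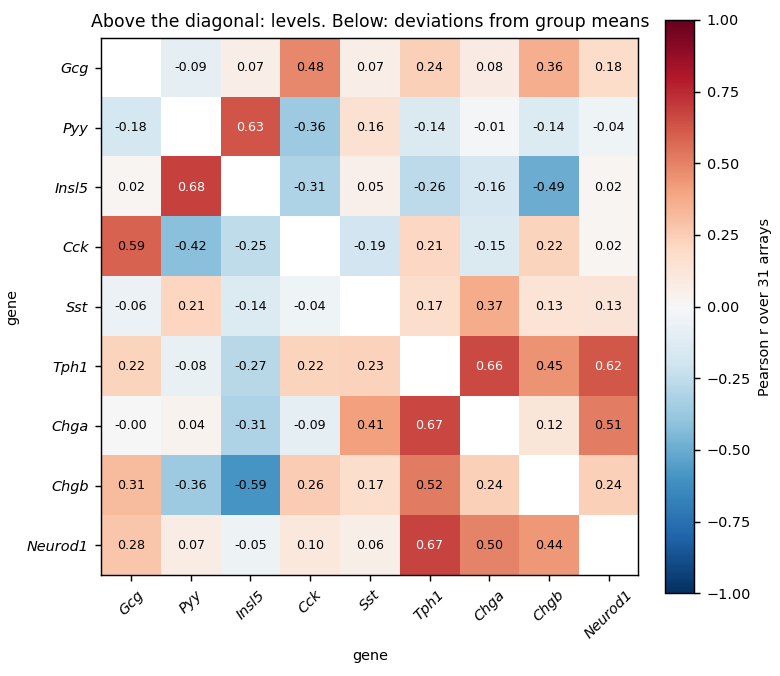
Pearson's r over the 31 arrays for each pair of the 9 genes (both axes), from levels above the diagonal and from deviations from the group means below it, on a colour scale from -1 to 1. Tph1, Chga and Neurod1 form a block of 0.50 to 0.67, and Insl5 is positive with Pyy and negative with Chgb.

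**Figure D4:**
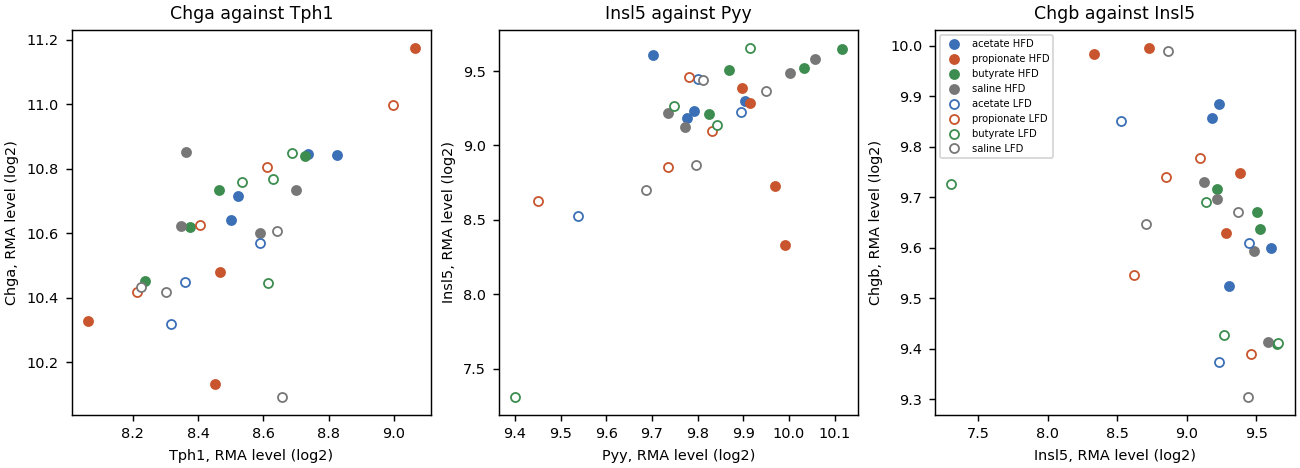
Log2 RMA levels of 3 pairs of genes in the 31 arrays, Chga against Tph1, Insl5 against Pyy and Chgb against Insl5 (y against x axis), with colours for the infusion, filled points for HFD and open points for LFD. In the middle panel butyrate LFD 2, at an Insl5 level of 7.31, lies far below the other arrays.

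The same 3 genes, Pyy, Insl5 and Chgb, went with markers of position along the colon. Homeobox genes of the posterior clusters are expressed towards the rectum, and 5 of the 6 listed were tested. Their list mean was 6.53 to 7.50 on HFD and 5.95 to 7.56 on LFD, with means of 6.99 ± 0.354 (SD, n = 16) on HFD and 6.81 ± 0.531 (SD, n = 15) on LFD. Acetate LFD 1, butyrate LFD 2 and saline LFD 1 were the lowest, at 5.95 to 6.01.

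Pyy had an r of 0.65 with this mean (permutation p = 9e-05, adjusted p = 0.00648) and a rho of 0.61 (permutation p = 0.00031, adjusted p = 0.022). On deviations r was 0.73 (adjusted permutation p = 0.001), and it was 0.61 without the 2 farthest arrays. The relation of Pyy therefore held within the groups as well. For Insl5 r was 0.63 (permutation p = 0.00026, adjusted p = 0.00936), with a rho of 0.48 (permutation p = 0.00651, adjusted p = 0.078), and it missed the threshold on deviations (r of 0.63, adjusted permutation p = 0.114). For Chgb r was -0.56 (permutation p = 0.00097, adjusted p = 0.0233), with a rho of -0.55 (permutation p = 0.00149, adjusted p = 0.054), and it also missed on deviations (r of -0.60, adjusted permutation p = 0.114). Without the 2 arrays farthest from the median r was 0.54 for Insl5 and -0.64 for Chgb. Over the 16 HFD arrays r was 0.51 for Pyy, 0.28 for Insl5 and -0.53 for Chgb. Over the 15 LFD arrays it was 0.72, 0.75 and -0.71, and the difference between the diets was not tested. Thus higher levels of the posterior genes went with more Pyy and Insl5 and with less Chgb, for Insl5 mainly over the LFD arrays, and the call held on deviations for Pyy alone.

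Taking the marker mean out of the deviations lowered the r of Pyy with Insl5 to 0.43 and brought that of Insl5 with Chgb to -0.34, whereas that of Tph1 with Chga was 0.68 and that of Tph1 with Neurod1 0.67. With the marker mean as a covariate, a choice made after seeing the data, the diet difference of Pyy over all infusions was 0.11 (adjusted p = 0.0878). Under propionate it was 0.26, and there it passed the threshold (adjusted p = 0.0338), the 1 setting of 44 in which any member did. Small intestinal markers had no relation with a member that passed, the nearest being Pyy by r (-0.44, adjusted permutation p = 0.135) and Insl5 by rho (-0.52, adjusted permutation p = 0.0644).

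**Figure D5:**
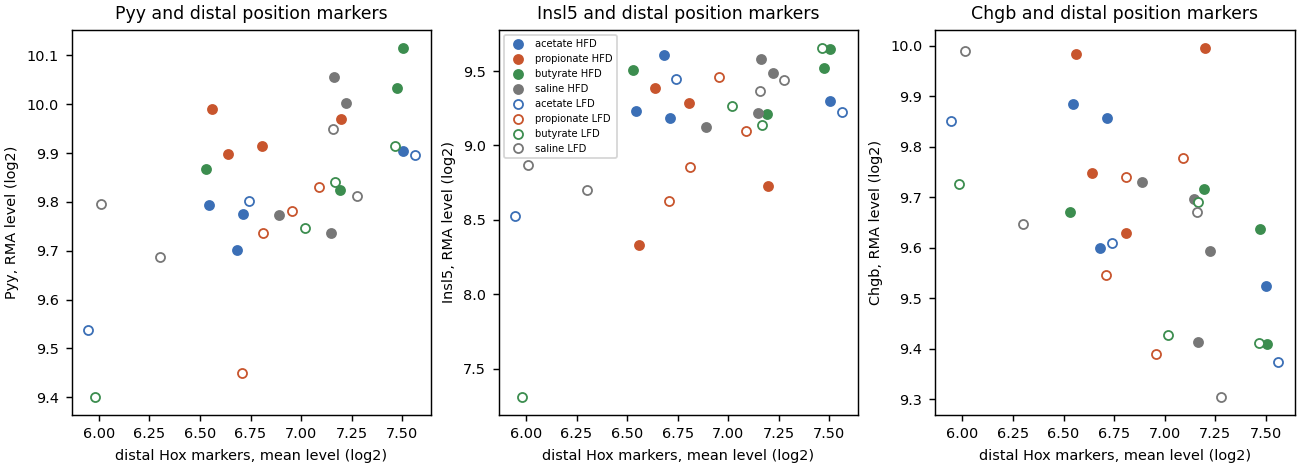
Log2 RMA levels of Pyy, Insl5 and Chgb (y axes) against the mean log2 level of 5 posterior homeobox genes (x axis) in the 31 arrays, with colours for the infusion, filled points for HFD and open points for LFD. Pyy and Insl5 are higher and Chgb lower where the marker mean is higher (r of 0.65, 0.63 and -0.56). For Insl5 r was 0.28 over the HFD arrays alone.

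The wider machinery of these cells was described by lists. Of 22 genes of prohormone processing and granules, 21 were tested, and 1 passed for diet over all infusions, where 2.7% of all genes did. Cpe, the carboxypeptidase that trims prohormone fragments, averaged 6.19 on HFD and 5.97 on LFD, a difference of 0.23 ± 0.06 (adjusted p = 0.0347). Of the 21 differences 20 were above 0, with a median of 0.10, against 52.4% above 0 and a median of 0.01 over all genes. The call on Cpe was lost in 13 of 44 other settings, with an adjusted p of 0.103 without saline HFD 1 and 2, the arrays high in smooth muscle. It was also lost when any 1 of 11 arrays was left out (acetate HFD 1 or 4, propionate HFD 4, butyrate HFD 3 or 4, saline HFD 1, acetate LFD 3, propionate LFD 1 or 2, butyrate LFD 2, saline LFD 4), with differences of 0.21 to 0.23 and adjusted p of 0.0540 to 0.0682.

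Among 15 tested transcription factors of the lineage, of 20 listed, 1 passed for diet, against the same 2.7%. St18 averaged 5.53 on HFD and 5.36 on LFD, a difference of 0.17 ± 0.05 (adjusted p = 0.0464), and 14 of the 15 were above 0 with a median of 0.08. This call was lost in 26 of 43 other settings, among them the removal of any 1 of 20 arrays, with differences of 0.15 to 0.18 and adjusted p of 0.0505 to 0.0921. In the remaining lists of these cells' products and receptors 0 passed for diet: 0 of 9 other gut hormones, 0 of 4 genes of amine synthesis and storage, 0 of 7 nutrient receptors and 0 of 11 hormone receptors or clearance enzymes. The smallest p among them belonged to Sstr1, a somatostatin receptor (7.14 on HFD and 6.90 on LFD, adjusted p = 0.0732).

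For the acids against saline over both diets, 0 genes of these lists passed. Gpr119, a lipid receptor of L cells, averaged 5.01 after acetate and 4.76 after saline (0.25 ± 0.08, adjusted p = 1.00). Ffar4, a receptor for long-chain fatty acids, averaged 7.72 after acetate and 7.55 after saline, a difference of 0.17 ± 0.09 (adjusted p = 1.00). After butyrate it averaged 7.73, a difference from the same saline arrays of 0.18 ± 0.09 (adjusted p = 0.986). Ffar2 averaged 6.79 after propionate and 6.69 after saline, a difference of 0.10 ± 0.11 (adjusted p = 1.00).

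The genes whose levels most resembled each member were ranked by Pearson's r over the 31 arrays among all genes tested, as a description with no test. Insl5 had the closest companions, Thbs4 (0.92), Clic6 (0.87), Anxa3 (0.87), Ggh (0.87) and Il18 (0.87). Tph1 was most like Tsc22d1 (0.85), Chga most like Nudt4 (0.84) and Glp1r, the receptor of GLP-1 (0.81), and Neurod1 most like Txndc12 (0.81). Chgb was followed most closely by Hexa (0.78), Pyy by Nek5 (0.77), Gcg by Arhgap24 (0.74), Cck by Muc4 (0.66) and Sst by Pcsk1n (0.65), the inhibitor of a prohormone convertase. Glp1r was dim, at a mean log2 level of 4.92, where the filter lies at 4.32. After Hexa, the nearest of Chgb were Ces1f (0.77), Dpyd (0.77), Hoxb4 (0.76) and Grk3 (0.76). Hoxb4 is a homeobox gene that is not on the list of posterior genes. The mean of the 9 standardised genes was most like Tsc22d1 (0.76), Scg3, a granin of secretory granules (0.72), and Tspan6 (0.72). Arrays share their tissue composition in such rankings, so they say nothing of shared function.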

How the data were processed

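Expression was measured in 31 samples of colonic scrapings, each on 1 single-colour whole-transcript array. The deposited values are on the log2 scale and were made by the authors with RMA, per the submitters' processing notes. The version of RMA is not given in the sources used here. RMA normalizes quantiles across arrays and compresses differences of dim probe sets, so fold changes near the floor are understated. Array medians were 5.14 to 5.19, and the number of arrays, not a read depth, limits the precision.

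Of 35556 probe sets, 21218 are listed with 1 gene symbol, 1881 with several and 12457 are not listed. Per gene the one-symbol probe set with the highest mean was kept, and genes under an intensity of 20 on all but 2 or fewer arrays were not tested. The members, gene lists and tests were chosen with earlier results of these data known.

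With limma 3.58.1 (R 4.3.3), 1 mean per group was fitted to the log2 values, the moderation of variances following the intensity trend, and 23 comparisons were drawn from it. Calls needed an adjusted p under 0.05 (Benjamini-Hochberg, all 12795 genes). Intervals are 95% intervals of that fit for 1 gene. Correlations used 100000 permutations, two-sided, within groups for deviations. All members were named, with values where the unadjusted p was under 0.05. Of each list, genes past the threshold were named, otherwise up to 2 with the smallest p, and of the genes most alike up to 5 per member. Promoter letters came from the RefSeq table.

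The fit was tested on simulated data with 12795 genes, with normal noise drawn for each gene separately and shifts put in randomly chosen genes. Differences in tissue composition, which many genes share, were not simulated. The within-group SD of the members ranked at the 75.1 percentile of all genes tested or above, except for Pyy (50.8) and Sst (45.9). The recovered shares are thus for genes in general and not for the members. Log2 shifts of 0.25, 0.5 and 1 were recovered in 71.6%, 98.5% and 100% of shifted genes for diet (all infusions), in 35.8%, 86.6% and 98.5% for acetate against saline (both diets), and in 19.4%, 64.2% and 98.5% for acetate against saline on HFD. Alternatives were other filters, moderation, array weights, probe set rules, quantile normalization, a block on the replicate number, a fit of the compared groups alone and leaving out each array in turn. Those chosen after seeing the data left out arrays high in small intestinal or smooth muscle markers or added the mean of the posterior homeobox genes as a covariate.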

Additional observations from a re-analysis of the deposited data

Results flagged for a closer look

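Of 63 groups of 4 arrays examined over the 9 genes, 2 held an array set apart from the other 3, its gap exceeding the 95% critical value of Dixon's test. Chance gives about 1 in 20 such groups, or 3.15 here. For Gcg, butyrate HFD 3 lay at 8.90 and the other butyrate HFD arrays at 8.55 to 8.60. For Cck, acetate HFD 3 lay at 4.65 and the other acetate HFD arrays at 4.21 to 4.23, a level close to the limit of measurement.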

How the results depend on the processing

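The count of members past the threshold was recomputed for the 23 comparisons under 44 other settings, 31 of which left out 1 array each. Of the 1012 counts 1011 were 0, so counts without each array ran from 0 to 0. The exception was HFD minus LFD under propionate with the mean of the posterior homeobox genes as a covariate, where the count was 1 (Pyy). The cause was not tested. A strict filter on the mean level (log2 of 6 or more) kept 8751 genes and left out Cck and Neurod1. Of 13 member values followed (9 with an unadjusted p under 0.05, besides 3 of Insl5 and 1 of Chga), 0 of 572 recomputations changed sign. Pyy for diet over all infusions ran from 0.11 to 0.17, with adjusted p of 0.0526 to 0.167. The relation of Chga with Neurod1 missed the threshold on deviations from the group means (0.50).

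For Gcg, acetate minus saline over both diets ran from 0.16 without acetate LFD 1 to 0.32 without acetate LFD 2. Of the other genes named for diet, Cpe and St18 kept their sign, with adjusted p of 0.0219 to 0.103 and of 0.0184 to 0.0921 over the settings.

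Same-numbered arrays deviated together little and unevenly: of 105 pairs 42 had a correlation of deviations over 0.1. Their correlations ran from -0.50 to 0.47 with a median of 0.04, against a median of -0.01 for pairs with other numbers. The numbers were therefore not taken as pairs. With the replicate number as a block, Pyy for diet was 0.15 (adjusted p = 0.0729) and the member counts were 0 throughout.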
